A study of Homo sapiens with 11 samples.

Results

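SOX10 binding was compared between DMSO and the BAF inhibitor FHT-1015 in 92-1, an established human uveal melanoma cell line. The members were the 136647 rows of the 2 SOX10 peak lists, out of 888435 rows in the 10 narrow peak lists of the series. Of these, 103379 came from cells given DMSO, the vehicle, for 4 h, and 33268 from cells given FHT-1015, a dual inhibitor of SMARCA4 and SMARCA2, for 4 h. No row repeated the coordinates of another. DMSO peaks touched by an FHT-1015 peak, by 1 bp or more, were called retained and all others lost, and an FHT-1015 peak was called FHT-1015-only if it touched no DMSO peak. The series held chromatin immunoprecipitation and sequencing (ChIP-seq) libraries for SMARCA4, MITF, TFAP2A and acetylated lysine 27 of histone H3 (H3K27ac) from the same 2 treatments, and 1 DMSO input library. There was 1 library per antibody and treatment, so no difference below has a replicate check and no p-value is given. Intervals are 95% Wilson intervals that cover counting error over peaks only.

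SOX10 is a transcription factor of the neural crest, the embryonic tissue that gives rise to melanocytes and Schwann cells, and it keeps melanocytes and most melanomas in their pigment cell state. It binds short DNA elements through a high mobility group domain and acts with MITF, the master regulator of pigment genes, and with TFAP2A. SMARCA4 and SMARCA2 are the alternative ATPases of BAF, the remodeling complex that slides and evicts nucleosomes, and H3K27ac is a mark of promoters and enhancers in use. The label was checked against marker genes. All 7 melanocyte marker genes, MITF, SOX10, PMEL, MLANA, DCT, TYR and TYRP1, had an H3K27ac peak at a gene boundary in DMSO, against 0 of 3 keratinocyte, 0 of 2 endothelial, 0 of 2 leukocyte and 0 of 2 fibroblast markers. Of 3 retinal pigment epithelium markers, BEST1 and RLBP1 had one.

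Under FHT-1015, 18936 of the 103379 DMSO SOX10 peaks were retained (18.3%, interval 18.1 to 18.6%) and 84443 were lost. The retained share depended on the threshold: it was 36.0% for the strongest DMSO peaks equal in number to the FHT-1015 list, 33.0% for DMSO peaks with a −log10 p of 10 or more, and 11.1% with that strength required in both lists. The lost share over all DMSO peaks, 81.7%, is the background for every count of lost sites below. Read depth was inferred from the peak values relative to the caller's control, assumed to be the same input library for both lists. It was 0.982 in DMSO and 1.12 under FHT-1015, and every depth-adjusted value below rests on that assumption. Peaks under FHT-1015 were also weaker, with a median −log10 p of 4.70 against 7.60 in DMSO. The number with a −log10 p of at least 10 was 4707 against 40186. A weaker immunoprecipitation in 1 library and less SOX10 on chromatin cannot be told apart with 1 library per treatment.

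The SOX10 sites at gene starts that bear on the results are shown first. Each line gives the 250 bases before an annotated start, 5′ to 3′ on the gene's strand, from RefSeq on GRCh38.p14, the assembly also called hg38. The first 3 hold the strongest retained SOX10 summits in a listed promoter and the next 3 the strongest lost summits. In these 6, capitals mark a 6-base SOX core, ACAAAG or ACAATG, on either strand.
OARD1: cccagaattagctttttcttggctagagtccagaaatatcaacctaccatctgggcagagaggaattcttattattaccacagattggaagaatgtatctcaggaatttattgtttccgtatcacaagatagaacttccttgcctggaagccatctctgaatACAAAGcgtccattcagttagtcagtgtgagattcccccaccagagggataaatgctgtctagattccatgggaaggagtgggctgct
C12orf76: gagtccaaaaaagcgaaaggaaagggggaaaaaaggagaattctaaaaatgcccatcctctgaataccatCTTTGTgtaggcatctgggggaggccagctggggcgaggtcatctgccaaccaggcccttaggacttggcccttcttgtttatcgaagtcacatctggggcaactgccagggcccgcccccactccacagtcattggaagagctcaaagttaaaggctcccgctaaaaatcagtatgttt
FAM186A: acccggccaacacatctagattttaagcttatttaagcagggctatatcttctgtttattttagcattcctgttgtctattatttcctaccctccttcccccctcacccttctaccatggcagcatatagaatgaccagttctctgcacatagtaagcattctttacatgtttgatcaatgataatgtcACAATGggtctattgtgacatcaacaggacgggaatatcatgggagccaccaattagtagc
RAB7B: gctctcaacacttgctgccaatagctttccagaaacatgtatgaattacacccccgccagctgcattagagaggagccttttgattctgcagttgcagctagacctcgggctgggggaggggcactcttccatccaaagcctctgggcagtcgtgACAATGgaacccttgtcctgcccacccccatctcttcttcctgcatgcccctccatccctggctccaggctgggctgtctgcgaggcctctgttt
EEIG1: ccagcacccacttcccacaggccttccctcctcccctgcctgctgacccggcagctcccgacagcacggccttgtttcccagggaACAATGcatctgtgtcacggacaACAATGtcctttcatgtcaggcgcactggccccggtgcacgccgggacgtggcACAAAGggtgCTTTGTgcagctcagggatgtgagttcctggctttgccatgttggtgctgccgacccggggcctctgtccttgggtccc
CAPN3: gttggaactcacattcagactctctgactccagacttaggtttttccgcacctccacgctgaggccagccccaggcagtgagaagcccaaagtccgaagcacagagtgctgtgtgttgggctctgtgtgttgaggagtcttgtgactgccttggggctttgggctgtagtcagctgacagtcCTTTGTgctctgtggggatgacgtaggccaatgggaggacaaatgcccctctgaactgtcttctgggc

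The coordinates are chr6:41097788-41098037, minus strand, for OARD1, chr12:110073636-110073885, minus strand, for C12orf76, and chr12:50396610-50396859, minus strand, for FAM186A. They are chr1:205994458-205994707, minus strand, for RAB7B, chr9:127950690-127950939, minus strand, for EEIG1, and chr15:42404514-42404763, plus strand, for CAPN3. OARD1, an ADP-ribose hydrolase gene, had 247 reads at the DMSO summit, 78 bases before the start, and 85 reads under FHT-1015. C12orf76 had 161 reads against 39, and FAM186A 168 against 42, so the retained promoters of this group also held far fewer reads. RAB7B, a small GTPase gene of the late endosome, had 221 DMSO reads, EEIG1, an estrogen-induced gene, 217, and CAPN3, the calpain that is expressed in muscle and melanocytes, 203. None of these last 3 had a SOX10 peak left. EEIG1 carried 4 SOX cores, and the other 5 promoters 1 each.

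The second group holds promoters of pigment genes, in which capitals mark the 21 bases centered on the DMSO SOX10 summit. SOX10 was retained at the first 4 and lost at the last 2.
MITF: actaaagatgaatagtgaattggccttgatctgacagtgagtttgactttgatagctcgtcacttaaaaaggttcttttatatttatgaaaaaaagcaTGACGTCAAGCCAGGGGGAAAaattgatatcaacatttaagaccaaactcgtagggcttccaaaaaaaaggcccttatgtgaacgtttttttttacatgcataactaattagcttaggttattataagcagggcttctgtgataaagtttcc
TYRP1: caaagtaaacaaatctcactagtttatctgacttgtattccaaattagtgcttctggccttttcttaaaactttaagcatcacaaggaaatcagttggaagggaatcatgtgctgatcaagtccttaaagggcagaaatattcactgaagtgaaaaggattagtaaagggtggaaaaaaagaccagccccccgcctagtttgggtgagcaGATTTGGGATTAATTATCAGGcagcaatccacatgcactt
GPNMB: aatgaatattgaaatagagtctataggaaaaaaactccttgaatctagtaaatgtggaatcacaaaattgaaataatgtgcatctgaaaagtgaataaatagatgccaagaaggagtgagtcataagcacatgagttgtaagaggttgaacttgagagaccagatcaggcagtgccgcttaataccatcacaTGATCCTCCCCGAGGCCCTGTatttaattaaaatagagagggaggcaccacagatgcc
TYR: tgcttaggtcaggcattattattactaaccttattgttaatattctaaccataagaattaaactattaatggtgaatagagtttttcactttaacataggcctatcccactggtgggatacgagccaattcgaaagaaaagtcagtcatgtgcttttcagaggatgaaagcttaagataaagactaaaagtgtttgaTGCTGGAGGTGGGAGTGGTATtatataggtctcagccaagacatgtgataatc
MLANA: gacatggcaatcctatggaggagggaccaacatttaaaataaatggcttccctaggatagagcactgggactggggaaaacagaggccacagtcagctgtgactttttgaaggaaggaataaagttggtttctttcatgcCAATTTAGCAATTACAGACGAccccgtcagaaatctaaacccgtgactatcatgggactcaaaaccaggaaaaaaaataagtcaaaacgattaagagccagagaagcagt
DCT: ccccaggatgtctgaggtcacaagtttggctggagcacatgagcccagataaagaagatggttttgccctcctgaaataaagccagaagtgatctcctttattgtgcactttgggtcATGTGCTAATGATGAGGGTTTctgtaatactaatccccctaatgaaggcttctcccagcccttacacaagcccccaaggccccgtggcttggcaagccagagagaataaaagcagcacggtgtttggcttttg

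The coordinates are chr3:69936342-69936591, plus strand, for the MITF start, chr9:12693135-12693384, plus strand, for TYRP1, and chr7:23246525-23246774, plus strand, for GPNMB. They are chr11:89177625-89177874, plus strand, for TYR, chr9:5890639-5890888, plus strand, for MLANA, and chr13:94479683-94479932, minus strand, for DCT. The summit in front of MITF, 142 bases before its start, had 119 reads in DMSO and 117 under FHT-1015. At TYRP1, which encodes a melanosomal oxidase of eumelanin synthesis, it had 54 in both. GPNMB, a melanosomal glycoprotein gene, had 166 against 130. TYR, the gene for tyrosinase, the rate-limiting enzyme of melanin synthesis, had 55 against 21. At MLANA, the melanocyte antigen gene, 69 DMSO reads left no peak, and at DCT, dopachrome tautomerase, 66 left none. The strength of the DMSO summit therefore did not order these 6 by outcome: the lowest, at TYRP1, kept a depth-adjusted ratio of 0.873, like the 0.859 at MITF, and a higher one, at MLANA, was lost. All 6 had peaks of the 4 other antibodies in DMSO. None of the 6 holds a SOX core as searched, which says only that these letters are not in these windows.

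Over all listed promoters (300 bases, 250 before and 50 after the start), 20.2% of 22199 held a SOX core on either strand. The share was 16.9% in the 3741 promoters with a retained SOX10 summit and 16.9% in the 2544 with a lost one. The E-box CACGTG, read by MITF and many other factors, was in 15.0% of retained and 9.32% of lost promoters, against 8.34% of all. The GC box GGGCGG was in 68.8% and 70.2%, against 56.3% of all. Retention of strong sites differed by CpG content. Among summits with a −log10 p over 50, all 69 promoters with 20 to 29 CpG dinucleotides and all 54 with 30 or more were retained. With 10 to 19 CpG, 15 of 19 were (78.9%, interval 56.7 to 91.5%). With 0 to 9 CpG, 24 of 36 were (66.7%, interval 50.3 to 79.8%), which overlaps the interval at 10 to 19. Of the promoters with 0 to 9 CpG, 24 of 36, 66.7%, held a SOX core. Lost promoters of that strength had a median of 4 CpG and 50% held a SOX core, and there were 16 of them. Over all strengths, promoters with 0 to 9 CpG kept 27.2% of 478 and those with 10 to 19 kept 58.3% of 1029. Those with 20 to 29 CpG kept 65.8% of 2362 and those with 30 or more 60.3% of 2416.

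Gene starts kept SOX10 far more often than the rest of the genome. Within 1 kb of a listed start of a protein-coding gene, 44.9% of 14943 peaks were retained (interval 44.1 to 45.7%). Near either end of a gene without a listed start, 40.3% of 3304 were. Within 1 kb of a gene end the share was 20.3% of 1998, in gene bodies 12% of 41307, and in intergenic DNA 13.2% of 41827. Counting genes, 10381 had a DMSO SOX10 peak at a listed start, and 6437 (62.0%) kept at least 1 there. Starts made up 14.5% of the DMSO list, so most lost sites were distal, that is, in gene bodies or intergenic DNA.

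The difference between starts and distal sites was widest at middle strength, as the plot of retained share by strength shows. Between a −log10 p of 20 and 50, 85.2% of 2798 start peaks were retained, against 35.1% of 171 at gene ends and 21.8% of 10241 distal peaks. Between 5 and 10 the shares were 26.4%, 18.6% and 8.06%. Above 100 they drew together, at 78.0% of 59 start peaks, 61.9% of 21 end peaks and 69.5% of 1736 distal peaks. At starts the share did not climb further above 20, and at distal sites it climbed over every step. With the ends of genes without a listed start counted as starts, the start to distal difference was 31.4 points over all peaks and 30.2 points when matched on strength, and 16.2 points when 50% of the DMSO peak had to be covered. With a −log10 p of at least 10 required in both lists it was 6.42 points, 16.1% of start peaks against 9.64% of distal ones. Of start peaks that strong in DMSO, 68.3% had an FHT-1015 partner of any strength, so most partners at starts were weak.

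**Figure D1:**
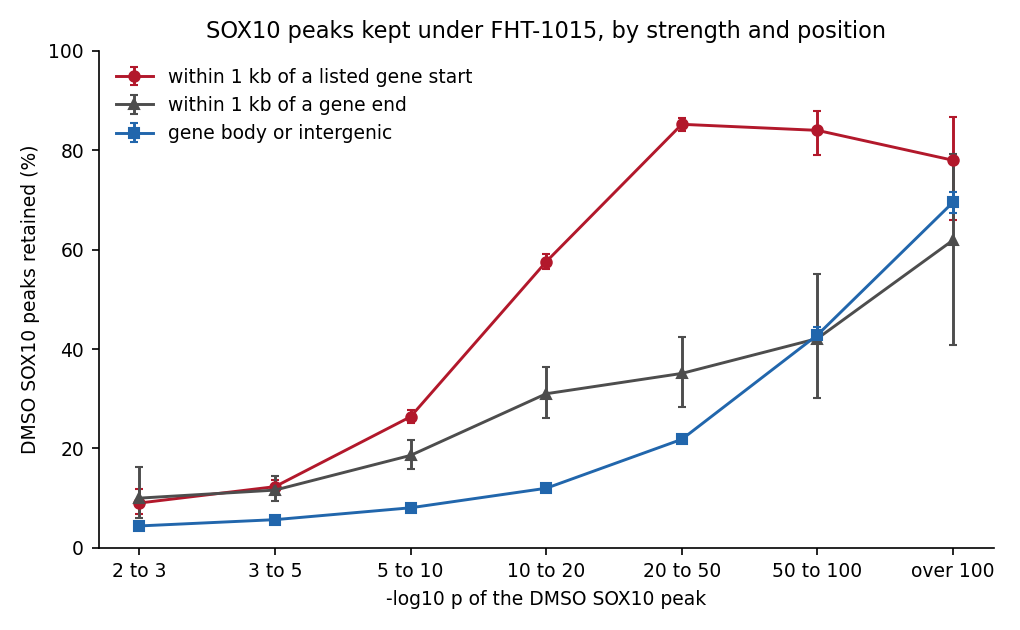
Share of DMSO SOX10 peaks retained under FHT-1015 (vertical axis, %) by the −log10 p of the DMSO peak (horizontal axis, bins), for peaks within 1 kb of a listed gene start, within 1 kb of a gene end, and in gene bodies or intergenic DNA. Bars are 95% Wilson intervals, which cover counting error only. Start peaks reach 85.2% between 20 and 50, where distal peaks stand at 21.8%.

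The very strongest SOX10 sites were kept as peaks and were nearly all distal. By −log10 p, the 10 strongest DMSO peaks were all retained, as were 19 of the top 20, 93 of the top 100 and 768 of the top 1000. Of the top 1000, 952 were distal. Retention as a peak hid a wide spread in signal. The site 249512 bp from ZEB2, a neural crest repressor gene, had 237 summit reads in DMSO and 211 under FHT-1015. The site in PGM1, a glycogen enzyme gene, had 266 and 54. Both count as retained.

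Other sites among the 10 strongest retained ones divided in the same way. SOX6, which encodes a SOX partner factor, held a site of 249 DMSO and 233 FHT-1015 reads. The site 16565 bp from SNAI2, the gene for the neural crest repressor Slug, had 286 and 274. The sites nearest PTTG1 (securin) and BAHCC1 had 268 and 243, and 322 and 200. In contrast, PLXNA4, a semaphorin receptor gene, had 317 and 71. The sites nearest ALDH1B1 and MTPN had 268 and 44, and 212 and 31. After adjustment for depth the FHT-1015 to DMSO read ratio was 0.542 to 0.837 at the 5 higher of these sites and 0.128 to 0.196 at the 4 lower ones. The H3K27ac peaks over the 5 higher sites were 5273 to 32082 bp wide in DMSO, and those over the 4 lower ones 204 to 6135 bp.

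Strong sites were also lost outright. LIPG, the endothelial lipase gene, held the strongest, a site of 237 summit reads with no FHT-1015 peak. COL21A1, a collagen gene, lost a site of 274 reads, and OC90 a site of 252. KAT6B, a histone acetyltransferase gene, lost a site of 229 reads, SHB, a signaling adapter gene, a site of 219, and DLG5, a scaffold gene, a site of 213. The sites nearest KLF13, CHGA (chromogranin A) and PKIA had 222, 209 and 209 reads, and a chromosome 16 site 1126432 bp from the nearest listed gene had 220. FHT-1015 peaks with a −log10 p under 2.5, the weakest in that list, had a median of 11 summit reads. Over these 10 lost sites H3K27ac was absent at 6 in DMSO, at LIPG, COL21A1, KAT6B, DLG5, SHB and near PKIA, and 681 to 2939 bp wide at the other 4. They were not typical in this: of all lost sites with a −log10 p over 50, 2361 had H3K27ac in DMSO and 561 did not. SMARCA4, MITF and TFAP2A had DMSO peaks at all 10. Most lost sites of that strength had them too, with 30, 292 and 171 sites lacking them, in that order. Under FHT-1015, SMARCA4 kept a peak at 5 of the 10 and at KAT6B and OC90 none of the 4 antibodies did. Over all lost sites of that strength with SMARCA4 in DMSO, 67.6% of 2892 kept it.

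Signal was lower at nearly every site with at least 50 DMSO summit reads that could be measured in both libraries. Of 13559 DMSO peaks with at least 50 summit reads, 7118 were lost and 6050 had an FHT-1015 summit within 200 bp. The depth-adjusted read ratio at these 6050 had a median of 0.448 (quartiles 0.316 and 0.572), and it was below 1 at 5967 of them (98.6%). The median was 0.494 at listed starts, 0.405 in intergenic DNA and 0.384 in gene bodies. The quartiles were closer at starts, 0.424 and 0.568, than at distal sites, 0.270 and 0.572. Strong sites at starts varied widely too: of 130 with at least 100 DMSO reads, 21 were lost, 20 had a ratio under 0.25 and 9 one of 0.75 or more. Among the 218 distal sites with at least 200 DMSO reads, 31 were lost, 37 had a ratio under 0.25, 52 of 0.25 to 0.5, 56 of 0.5 to 0.75 and 42 of 0.75 or more. Sites without an FHT-1015 peak have no ratio, so these medians cover only sites with a peak in both libraries. The sites were chosen by their DMSO reads alone, which by itself favors ratios below 1. The part of this choice in the 98.6% was not tested.

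**Figure D2:**
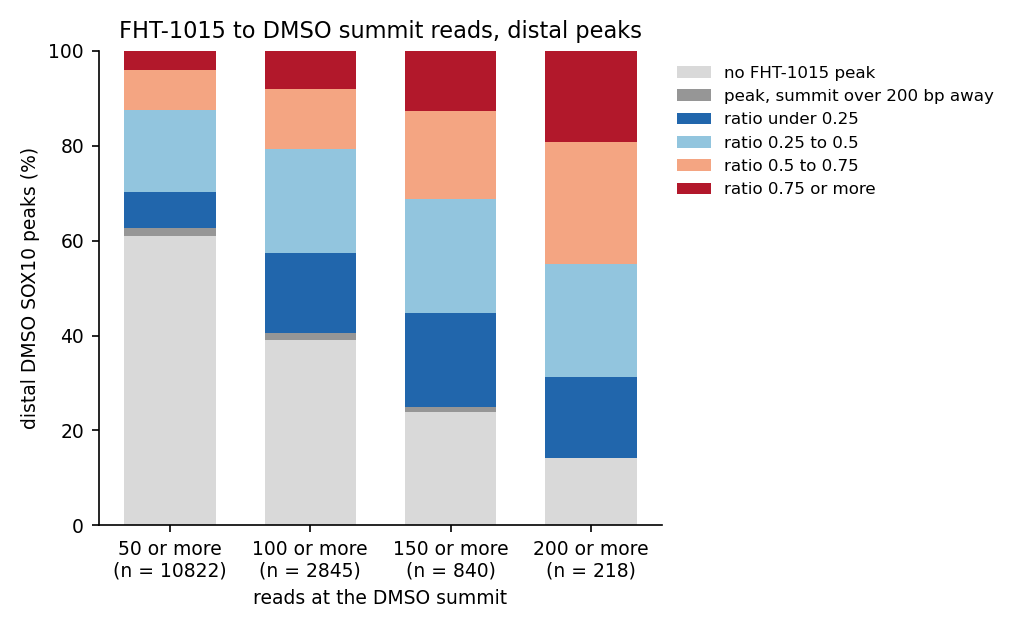
Distal DMSO SOX10 peaks (vertical axis, %) split by outcome under FHT-1015, for peaks with at least 50, 100, 150 or 200 reads at the DMSO summit (horizontal axis, nested sets). Colors give the depth-adjusted FHT-1015 to DMSO summit read ratio, light gray a lost peak and dark gray a retained peak whose summit lay over 200 bp away. At 200 reads or more, 31 of 218 were lost and 42 had a ratio of 0.75 or more.

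At 83 sites with at least 50 DMSO reads the adjusted count was not lower under FHT-1015. Their strongest members by −log10 p included the start of CDH19, a cadherin gene of Schwann cell precursors, with 130 DMSO and 165 FHT-1015 reads and a ratio of 1.11. LRRD1 held a site of 151 and 190, PRKG1, a cGMP kinase gene, 114 and 132, and RYR2, a calcium channel gene, 137 and 162. A site 209502 bp from FOXD3, a neural crest pioneer factor gene, had 160 and 202, and a site 10150 bp from SCG2, secretogranin, had 117 and 138. All 10 of the strongest had peaks of the 4 other antibodies in both treatments. H3K27ac width in DMSO exceeded 5 kb at 18 of the 83 (21.7%), against 809 of the 6050 sites with a partner (13.4%).

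The width of the H3K27ac peak over a distal site went with its outcome. Distal SOX10 peaks outside H3K27ac kept 6.68% of 48134, those under an H3K27ac peak of up to 500 bp 8.72% of 8086, and those under one of 1 to 2 kb 19.4% of 7839. The share was 30.2% of 9193 at 2 to 5 kb, 40.7% of 2380 at 5 to 10 kb and 49.3% of 690 over 10 kb (interval 45.6 to 53.0%). The widest class was not the strongest in SOX10: its median −log10 p was 7.50, against 16.7 at 2 to 5 kb. In each of the 7 strength bins the share was lower without H3K27ac than over 10 kb. Between a −log10 p of 5 and 10 the share was 6.62% without H3K27ac and 45.5% over 10 kb, and above 100 it was 46.3% and 90.2%. Matched on strength, the difference between the end classes was 39.6 points, against 42.6 unmatched.

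Where SOX10 was measurable in both libraries, signal followed width too. The median read ratio at distal sites with at least 50 reads was 0.322 without H3K27ac and 0.504 over 10 kb. The plot of retained share by H3K27ac width sets SOX10 beside the other antibodies. Distal MITF peaks kept 21.6% without H3K27ac and 66.3% over 10 kb, TFAP2A peaks 45.9% and 75.9%, and SMARCA4 peaks 21.4% and 70.2%. SOX10 was the lowest of the 4 in every width class, and the difference between antibodies was not tested. Lists of different depth and antibody strength are not equal in what they can call.

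**Figure D3:**
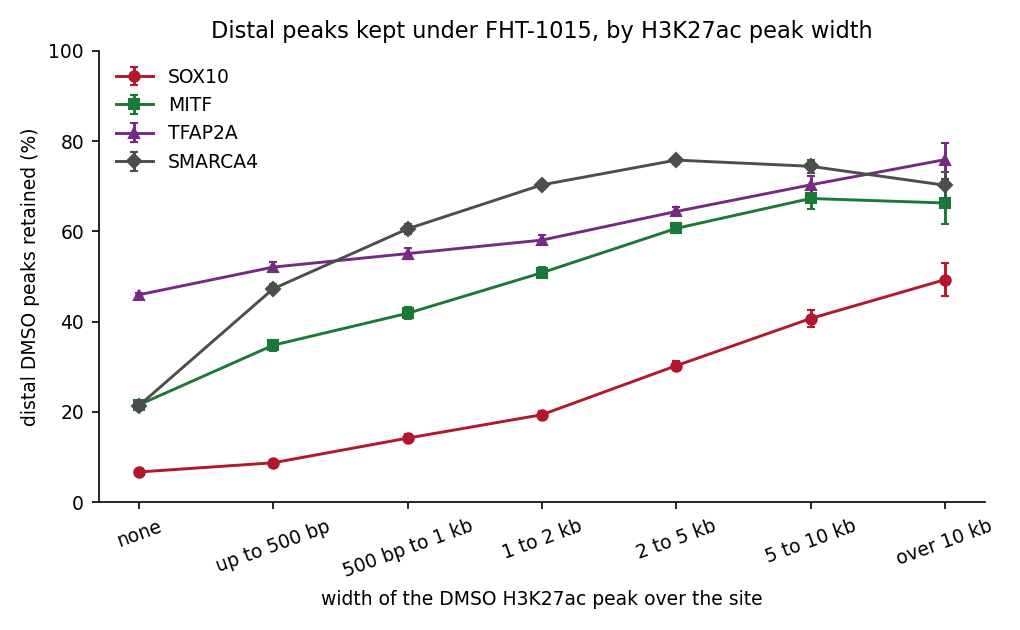
Share of distal DMSO peaks retained under FHT-1015 (vertical axis, %) by the width of the DMSO H3K27ac peak over the site (horizontal axis), for SOX10, MITF, TFAP2A and SMARCA4. Bars are 95% Wilson intervals and cover counting error only. SOX10 runs from 6.68% without H3K27ac to 49.3% over 10 kb and lies below the other 3 in every class.

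The other antibodies at a SOX10 site gave a related picture. With none of the 4 in DMSO, 8.43% of 20080 SOX10 peaks were retained, with 1 of them 6.40% of 18474, with 2 11.1%, with 3 20.2%, and with all 4 39.5% of 24321. Matched on SOX10 strength, that difference of 31.1 points was 11.2 points. Retention divided by H3K27ac: the 8 combinations without it kept 4.04 to 8.70%, and the 8 with it 10.0 to 39.5%. Each acetylated combination kept more with TFAP2A than without, and also had a higher median SOX10 strength. H3K27ac with MITF alone kept 10.0% of 1484, and H3K27ac with MITF and TFAP2A 38.9% of 2742. H3K27ac, SMARCA4 and MITF without TFAP2A kept 13.9% of 3847, although these peaks were stronger in the median (10.2) than those with H3K27ac and SMARCA4 alone (5.37), which kept 15.9% of 3600.

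Loss of SOX10 often left other marks in place. At lost SOX10 sites that had a DMSO peak of another antibody, that peak was still present under FHT-1015 at 70.4% for H3K27ac, 58.4% for SMARCA4, 55.5% for TFAP2A and 37.9% for MITF. At retained sites the shares were 98.2%, 93.9%, 93.0% and 82.5%. The shares differed by position among the lost sites. At lost sites near listed starts H3K27ac remained at 95.4%, SMARCA4 at 91.5%, TFAP2A at 89.1% and MITF at 61.6%, and at lost distal sites at 63.7%, 52.5%, 48.7% and 34.9%. MITF was thus the antibody most often absent where SOX10 was lost, in both positions, but also where SOX10 was retained. These shares were not compared with the share kept over all peaks of each antibody.

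SOX10 sites lay in clusters, and dense ones kept more. Peaks up to 12500 bp apart were joined, which gave 48752 clusters. Isolated peaks kept 12.9% of 26424, clusters of 2 kept 16.2%, of 3 to 4 19%, of 5 to 9 22.1%, of 10 to 19 26.9% and of 20 or more 34.6% of 1570. Median strength was alike over these classes (a −log10 p of 7.21 to 7.73), and so was the share at listed starts from 2 peaks up (13.4 to 17.8%, 7.82% for isolated peaks). Most clusters lost a part of their peaks. Of 657 with at least 10 peaks, 71 kept none (10.8%), 94 kept at least 50%, and 0 kept all. The median was 25%. In the 586 that kept some, the strongest DMSO peak was among the kept in 422 (72.0%). Neighbors went together to a degree: with the next peak at most 2 kb on, it was retained in 40.8% of cases after a retained peak and in 22.5% after a lost one. By the overlap rule, an FHT-1015 peak over 2 or more DMSO peaks retains them together, and 416 did so. Their part in this difference was not tested.

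The cluster with most peaks spanned GNAI1, an inhibitory G protein gene, over 162 kb of chromosome 7, and kept 35 of 67. PAX3, a neural crest and melanocyte factor that activates MITF, kept 25 of 54. A chromosome 19 cluster over STK11, CIRBP and neighbors kept 24 of 54, RAB38, a melanosome trafficking GTPase gene, 15 of 48, and TARBP1 with IRF2BP2 11 of 38. Among clusters of at least 10, the highest shares were at a site 149853 bp from GSDMC (10 of 11), CD36, a fatty acid receptor gene (9 of 10), ST7L with CAPZA1 (8 of 10), STX10 with IER2 (8 of 10) and TYRP1 (22 of 28). TYRP1 stands out among these by its number of peaks. The largest clusters that kept none were 541467 bp from ZEB2 (18 peaks), 65779 bp from VCPKMT (15), across RPTOR to BAIAP2 (15), at FGF9, a fibroblast growth factor gene (14), and at SLC25A30 (14). The last 2 tie with 4 other clusters of 14 peaks, at SAMD4A, JARID2, GMPR and TTYH3 with AMZ1. FGF9 had H3K27ac at 100% of its peaks in DMSO and its strongest SOX10 peak reached a −log10 p of 126. The cluster far from ZEB2 was weak, at most 7.49.

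**Figure D4:**
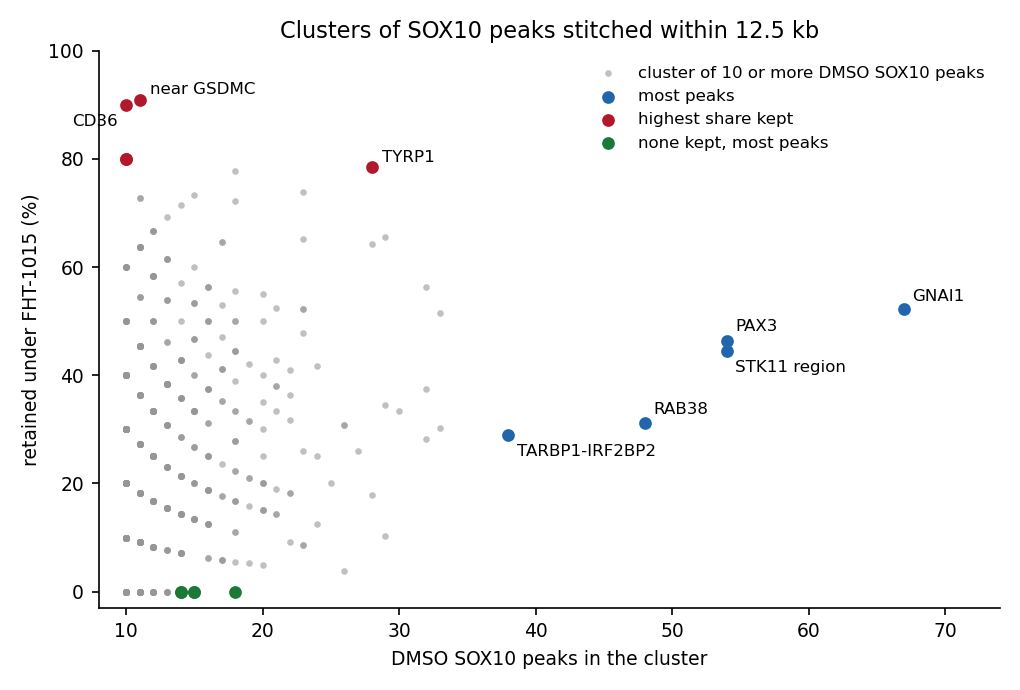
The 657 clusters with at least 10 DMSO SOX10 peaks: number of DMSO peaks (horizontal axis) against the share retained under FHT-1015 (vertical axis, %). Each point is 1 cluster, and colors mark the 5 with most peaks, the 5 with the highest share and 5 of the largest that kept none, 2 of them tied with 4 unmarked ones at 14 peaks. GNAI1, with 67 peaks, kept 52.2%, and TYRP1, with 28, kept 78.6%.

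By gene, counting peaks in its extent and 10 kb on either side, 17077 protein-coding genes had a DMSO SOX10 peak and 5999 of them kept none (35.1%). Among the 1954 genes with at least 10 peaks, 214 kept none (11.0%, and 5.07 to 27.8% over other overlap rules, thresholds and gene windows), 95 kept at least 50% (4.86%) and 9 kept at least 75% (0.461%). The median kept was 16.7%. The genes that kept none were long, with a median of 221 kb, against 23.1 kb for those that kept at least 50% and 182 kb for all 1954. The part of gene length in this difference was not tested.

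Of the genes that kept none, PPARGC1A had most peaks, 32, with a strongest summit of 99 reads. It encodes PGC-1α, the coactivator of mitochondrial biogenesis that MITF is known to drive in melanoma. UNC5D, a netrin receptor gene, had 31, and TNS3, a focal adhesion gene, 30 with a summit of 140 reads. ARHGAP26 had 26, ATP8A2 25, BMPR1B, a BMP receptor gene, 24, KLHL29 24, BBS9 22 and KCNIP4 22. FHT-1015-only peaks were few at these genes, 0 to 2 each. The strongest peak that these genes lost ranged from a −log10 p of 22.5 at KCNIP4 to 117 at TNS3.

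The 9 genes that kept at least 75% were TYRP1 (15 of 20), CAPZA1 (11 of 14), CPB2 (10 of 13), NSUN6 (10 of 13), RECQL4 (9 of 12), ZFP36L1 (10 of 11), NR4A3 (9 of 10), and the neighbors IMPDH2 and NDUFAF3, which share their 10 peaks and kept 8. CPB2, a carboxypeptidase gene, held a summit of 287 reads in DMSO, and its highest FHT-1015 summit had 293, or 256 at the DMSO depth. NR4A3, an orphan nuclear receptor gene of the immediate early class, had 25 FHT-1015 peaks against 10 in DMSO. ZFP36L1, an mRNA decay factor gene, had 98 reads at its highest DMSO summit and 60 under FHT-1015. Over the 1954 genes, 27 had at least as many FHT-1015 peaks as DMSO peaks (1.38%).

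Pigment genes kept 76 of 274 peaks (27.7%, interval 22.8 to 33.3%), against 20.9% of the 69192 peaks near any protein-coding gene. DMSO peaks near genes with the same positions and strengths would give 17.4%, and with the same H3K27ac widths as well 25.9%. Without TYRP1 the pigment genes kept 24%, and the interval of their difference from all near-gene peaks, −1.73 to 8.74 points, then held 0. The 18 genes were far from uniform, and 3 kept none. Of all genes with a peak 35.1% kept none, and of those with at least 10 peaks 11.0%. These shares are not matched on the number of peaks per gene. MITF kept 19 of 55, with a highest summit of 164 reads in DMSO and 152 under FHT-1015. Such pairs, here and at the genes below, give the highest summit near the gene in each library, not always at the same site. They are reads as recovered, without adjustment for the inferred 1.14 times greater depth under FHT-1015. RAB38 kept 13 of 54 (142 and 124 reads) and GPNMB 5 of 11 (166 and 130).

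Other genes of melanin synthesis and melanosome structure lost most SOX10. PMEL, which encodes the fibril protein of the melanosome, kept 3 of 16, and its highest summit had 225 reads in DMSO and 33 under FHT-1015. MLANA kept 1 of 15 (155 and 37 reads), TYR 2 of 10 (144 and 21) and CAPN3 1 of 11 (203 and 30). At TYR and CAPN3 the strongest DMSO peak by −log10 p was lost. OCA2, the gene for a melanosomal ion transport protein, kept 0 of 11, DCT 0 of 7 and MLPH, the melanophilin gene of melanosome transport, 0 of 7. TRPM1, a cation channel gene, kept 5 of 18 and MC1R, the melanocortin receptor gene, 5 of 9. The pigment genes thus ranged from 0% at OCA2, DCT and MLPH to 75% at TYRP1 among those with at least 5 peaks.

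Neural crest transcription factor genes kept 110 of 361 peaks (30.5%, interval 25.9 to 35.4%), against 16.7% given position and strength and 23.5% with H3K27ac width added. PAX3 kept 25 of 52, TFAP2A 14 of 24 (118 reads at its highest DMSO summit and 122 under FHT-1015, or 107 at the DMSO depth), MEF2C 12 of 27 (219 and 191) and SNAI2 4 of 7 (208 and 227, or 198 at the DMSO depth). SOX6 had most peaks of the list and kept 19 of 82, and SOX5, its paralog, 15 of 76. ETS1 kept 6 of 21 (204 and 137). SOX10 itself kept 2 of 12, with a highest summit of 93 reads in DMSO and 42 under FHT-1015. Its strongest DMSO peak, at a −log10 p of 70.1, was lost, and its strongest retained one reached 28.6. TFEC, a relative of MITF, kept 0 of 14, and LEF1, a Wnt pathway factor gene, 0 of 10. The list thus held genes with high signal in both libraries beside 4 of 17 with a peak that kept none. Of all genes with a peak, 35.1% kept none, and of those with at least 10 peaks 11.0%, neither matched on peaks per gene. TFAP2C, with 3 DMSO peaks, and TFAP2B, with 1, were among the 4.

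Schwann cell and glial genes kept 24 of 103 (23.3%, interval 16.2 to 32.3%), against 22.6% given position and strength and 27.7% with H3K27ac width. CDH19 kept 3 of 10, MBP, myelin basic protein, 5 of 20 (132 and 50) and PMP22 2 of 11 (65 and 19). Growth receptors and the G alpha q pathway, which carries the initiating mutations of uveal melanoma, kept 40 of 243 (16.5%, interval 12.3 to 21.6%). Position and strength give 16.0%, and with H3K27ac width 18.7%. EDNRB, the endothelin receptor gene of melanoblasts, kept 4 of 17 (161 and 114) and RASGRP3, the activator that links G alpha q to RAS, 6 of 20 (200 and 141). PLCB4 kept 3 of 33, IGF1R 10 of 42 (181 and 40) and GNAQ 1 of 27 (85 and 16). At PMP22 and GNAQ the strongest DMSO peak by −log10 p was lost.

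Genes of MAP kinase feedback kept 46 of 122 (37.7%, interval 29.6 to 46.6%), against 23.6% given position and strength and 29.4% with H3K27ac width. SPRY2, a sprouty inhibitor gene, kept 7 of 9, with a highest summit of 91 reads in DMSO and 114 under FHT-1015, or 99.6 at the DMSO depth. ETV1 kept 5 of 13 (160 and 124) and DUSP6, an ERK phosphatase gene, 5 of 9, although its highest summit had 183 and 35. ETV4 kept 1 of 12 (112 and 14), and its strongest DMSO peak by −log10 p was lost. AP-1 genes kept 22 of 69 (31.9%, against 26.6% given position and strength). Cell cycle and replication genes kept 61 of 159 (38.4%, against 27.1%), and BAF subunit genes, which encode the target complex, 70 of 226 (31.0%, against 20.4%). With H3K27ac width the expected shares were 26.8%, 29.1% and 24.6%, in that order. ARID1B kept 18 of 66 with a highest summit of 161 and 174 reads, the latter 152 at the DMSO depth, and DPF3, a subunit gene of the differentiated BAF form, kept 0 of 9.

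Measured shares were highest in lists with many start peaks, and several lay near the share that position and strength give. Replication-dependent histone genes kept 38 of 72 (52.8%), with 51.4% of their peaks at listed starts. Position and strength give 41.1%, and with H3K27ac width 47.6%. Cytosolic ribosomal protein genes kept 223 of 452 (49.3%, interval 44.8 to 53.9%), against 30.5% given position and strength and 34.7% with H3K27ac width. All 83 ribosomal protein genes with a peak kept at least 1. Complex I subunits kept 39.4% of 127, against 36.7% given position and strength, proteasome subunits 36.4% of 143, against 30.9%, and lysosome genes 27.5% of 102, against 30.9%. Zinc finger genes named ZNF, with or without a KRAB domain, kept 36.5% of 1299, against 29.1%. HOX genes kept 36.8% of 68, protocadherins 27.8% of 212, ephrin and semaphorin genes 19.6% of 500 and olfactory receptors 18.2% of 110. Collagen genes were the lowest list at 41 of 318 (12.9%, interval 9.65 to 17%), which holds the 15.9% given position and strength. Of 43 with a peak 22 kept none, against 35.1% of all genes with a peak and 11.0% of those with at least 10, neither matched on peaks per gene. COL25A1 kept 2 of 32 and COL26A1 0 of 19, and COL19A1, 5 of 13, had 110 reads at its highest DMSO summit and 136 under FHT-1015, or 119 at the DMSO depth.

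**Figure D5:**
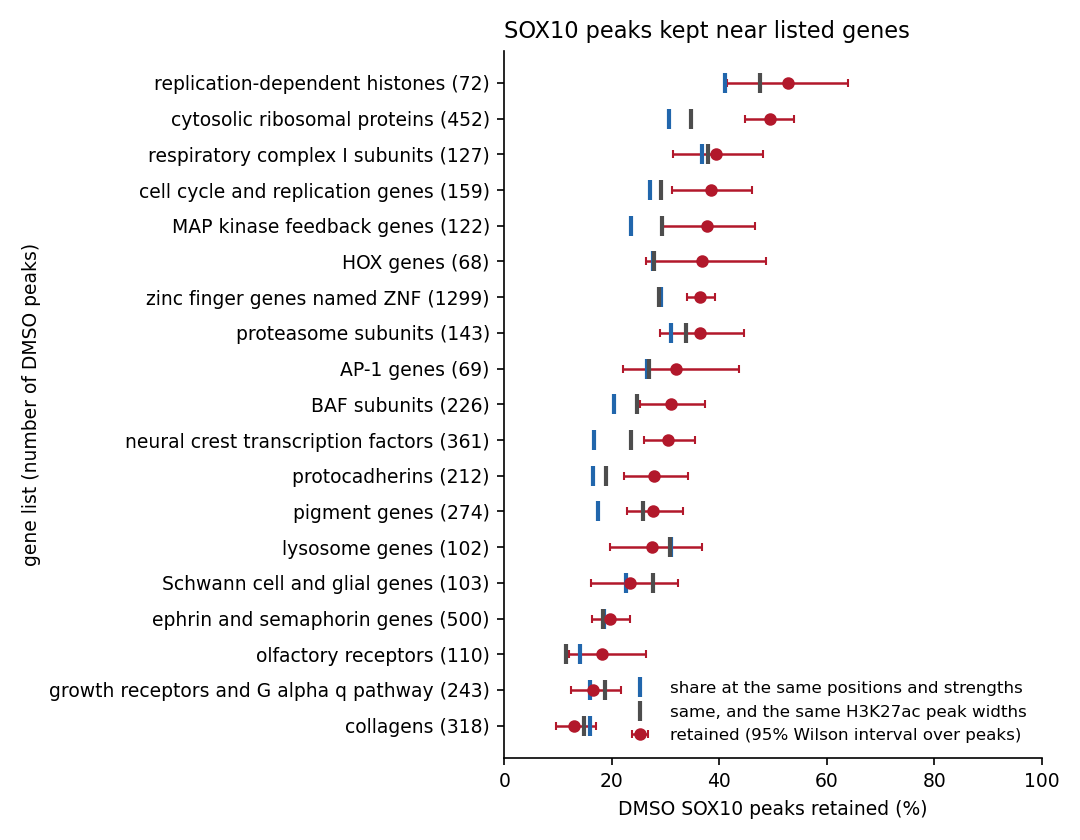
Share of DMSO SOX10 peaks retained under FHT-1015 (horizontal axis, %) for 19 gene lists (vertical axis, with the number of DMSO peaks). Points are the measured shares with 95% Wilson intervals over peaks, blue ticks the share of near-gene peaks at the same positions and strengths, and gray ticks the same with H3K27ac widths added. Lists run from 12.9% at collagens to 52.8% at replication-dependent histones.

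The 12801 FHT-1015-only peaks were 38.5% of the FHT-1015 list, and they were weak. Their median −log10 p was 3.73 with 11 summit reads, 69 reached a −log10 p of 10, and those 69 were 1.47% of the 4707 FHT-1015 peaks of that strength. They were 7.60% of FHT-1015 peaks at listed starts, 50.3% in gene bodies and 51.9% in intergenic DNA. Of these peaks, 71.3% overlapped no peak of the 4 other antibodies under FHT-1015, against 7.68% of the FHT-1015 peaks shared with DMSO. On contigs not placed on a chromosome they were 266 of 306. The strongest lay nearest ZNF33B (101 reads, 2.75-fold over background, 684427 bp away) and CLSTN3 (25 reads), and in ADGRG5 (28), LRP3 (25) and KCTD1 (25).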

How the data were processed

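SOX10 and 4 other antibodies were profiled by ChIP-seq in 92-1 cells. Per the submitters' processing notes, BWA, SAMtools, Picard and MACS2 were used on build hg38; their versions and settings, and which control the caller used, are not given in the sources used here. The narrow lists deposited by the authors, 1 per library, give a score (10 times −log10 p, truncated), a fold enrichment (a ratio at the summit) and −log10 p and q, which were used only to rank or bin peaks within a list. In the deposited values, −log10 q passed 0.05 at 92.3% of DMSO and 57.9% of FHT-1015 SOX10 peaks. The 4 broad lists were not used. The input library enters only as the assumed common control of both SOX10 lists, which sets the scale of the depths.

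Peaks were intersected with Python 3.11.15, numpy 2.4.6, pandas 2.3.3 and scipy 1.17.1; plots used matplotlib 3.10.9. Summit reads and depths were solved from each peak's fold enrichment and p on the form MACS2 is known to use, a Poisson p against a local background, which is an inference. Whole reads resulted for 99.999% of DMSO peaks (tolerance 0.002). For FHT-1015, only whole reads were searched, with values rescaled by 0.890, a scale fitted to peaks of the same list. The best whole count then gave the deposited −log10 p within 0.002 at 100% of FHT-1015 peaks, which is a different check. The overlap, cluster, matching and read steps were tested on simulated data. Starts came from RefSeq promoters (22199 starts for 15843 of 20037 protein-coding genes), other boundaries from the RefSeq gene table, both GRCh38.p14; without a genome, distal sequences are not analysed here. H3K27ac width is that of the widest DMSO narrow peak over the site.

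Members and gene lists were chosen with earlier results of these data known. Named are the 10 genes with most peaks and none kept, all with 75% or more kept among genes with 10 or more, list members with most peaks or the highest or lowest share, the 10 strongest lost and retained and 5 strongest FHT-1015-only peaks, and 15 clusters; other list members, the sites with reads not lower, the pigment promoters and the genes with most FHT-1015-only peaks were chosen after their values were seen. A few members that these rules name are not reported here. Alternatives changed the overlap rule, peak threshold, windows and matching.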

Additional observations from a re-analysis of the deposited data

How the results depend on the processing

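No paired analysis was possible because there was 1 library per treatment and no replicate number to pair. No difference between classes changed sign, and 39 of the 50 alternative values, plain shares included, lay outside the interval of the value above. Requiring 50% of the DMSO peak to be covered, summits within 200 bp, a −log10 p of 10 in both lists, a −log10 p of 10 in DMSO alone, or DMSO peaks equal in number to the FHT-1015 list gave, in that order, a retained share of 11.6, 15.8, 11.1, 33.0 and 36.0%. The start minus distal difference was 16.2, 24.8, 6.42, 45.7 and 48.9 points, and 26.8 with a 2.5 kb window and 30.2 matched on strength. Dense clusters minus isolated peaks gave 10.1, 11.4, 10.1, 18.6 and 17.9 points, 26.1 when joined within 5 kb and 14.3 matched. Sites with all 4 other antibodies minus those with none gave 15.6, 26.5, 14.4 and 30.04 points under the first 4, and 11.2 matched. The share of genes that kept none was 26.7, 13.7, 27.8, 5.74 and 5.07%, 13.3% in gene extents alone and 6.04% with 50 kb on either side. H3K27ac over 10 kb minus none, with alternatives chosen after seeing the data, gave 31.1, 32.8, 36.6, 56.0 and 56.8 points. The FHT-1015-only share was 41.8% when 50% coverage was required and 1.47% among strong FHT-1015 peaks (−log10 p of 10 or more); leaving out unplaced contigs and chromosome Y, also chosen after seeing the data, gave 37.9%. The pigment gene difference, 6.84 points, was 3.12 without TYRP1 and 4.17 to 9.69 under the other settings, all within its interval of 1.86 to 12.4. The alternatives' own intervals held 0 with summits within 200 bp, with either threshold of 10, with lists of equal number and without TYRP1. A lost call rests on few reads, since the weakest FHT-1015 peaks, those with a −log10 p under 2.5, had a median of 11 and as few as 7 summit reads.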

Other observations

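Over all FHT-1015 SOX10 peaks in gene bodies, 50.3% were FHT-1015-only. Counts at genes are given out of each gene's FHT-1015 peaks, without adjustment for gene length. HMCN1, a basement membrane hemicentin gene of 457 kb, had most, 29 of 56, beside 28 of 48 DMSO peaks kept. CDKAL1, a tRNA-modifying enzyme gene of 698 kb, had 22 of 45, beside 22 of 90 DMSO peaks kept. PTPRN2 (1049 kb) had 21 of 24, with 7 DMSO peaks. DLGAP2 (971 kb) had 17 of 17, with 8 DMSO peaks, of which 0 were kept. NR4A3 (45 kb) had 17 of 25, with 10 DMSO peaks. COL5A1, a fibrillar collagen gene of 203 kb, had 15 of 15, with 3 DMSO peaks, of which 0 were kept. Windows of 1 Mb with at least 10 FHT-1015-only peaks numbered 293 and held 4858 of the 12801.

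By chromosome, the share of SOX10 peaks kept ran from 15.8% on chromosome 21 to 26.3% on chromosome 19, where 32.6% of DMSO peaks lay at listed starts. At lost SOX10 sites near listed starts that had no SMARCA4 peak in DMSO, 47.5% of 2850 had one under FHT-1015, against 9.04% of 36935 such lost distal sites. Over all positions the share was 12.1% of 41608 lost sites and 28.8% of 4870 retained ones. Retained start sites were not counted apart, so the 47.5% cannot be set against them. At lost start sites without the DMSO peak in question, 18.2% had H3K27ac under FHT-1015, 27.3% TFAP2A and 11.4% MITF.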
